A study of Mus musculus with 4 samples.

Results

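The genes described here are Cdsn, Fxyd3, Ffar4, F13a1, Rbp4, Nacad and Fgf21, 7 of the 31053 genes in the count matrix. They were chosen by measured values, since their counts lead the list of genes that set hypertrophic chondrocytes (HCs) apart from the other cells of the tibia, so their high level in HCs is the ground on which they were picked and is given below as a description, without a test. The contrast that chose them was HCs against all other cells, so a low overall level in the other cells was part of the choice too, and the share of a member's counts that lies in HCs follows from it. How they differ among the other cell types, within the HCs and between osteogenic cells with and without the reporter was not used, although all of it comes from the same cells. The cells came from 1 male mouse at postnatal day 6 (P6) with the genotype Col10a1Cre;Rosa26-Tdtomato;Irx3 +/Δ;Irx5 +/-, the Irx3/5 heterozygous control of the series, and both of its tibiae were dissociated together. The mouse thus carried 1 altered copy each of Irx3 and Irx5, and no mouse with both copies of either gene intact was analysed. Cre was driven by Col10a1, so tdTomato and the WPRE sequence in its transcript mark HCs and the cells derived from them. The 4 sequencing entries are 1 library of 1 pool of cells. There were therefore no replicates, no p-values were computed, and the intervals given are 95% intervals that cover counting error only.

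HCs are the last stage of the growth plate chondrocyte. They enlarge, deposit collagen X, let their matrix mineralize, and then either die or cross into the bone marrow side, where their descendants can become osteoblasts. None of the 7 genes is a textbook cartilage gene. Cdsn encodes corneodesmosin, an adhesion glycoprotein of the outermost epidermis. Fxyd3 encodes a small membrane protein that modulates the sodium and potassium pump. Ffar4 encodes a receptor for long-chain fatty acids, known also as GPR120. F13a1 encodes the catalytic subunit of coagulation factor XIII, a transglutaminase that crosslinks fibrin and other matrix proteins. Rbp4 encodes the plasma carrier of retinol. Nacad encodes a relative of the alpha subunit of the nascent polypeptide-associated complex, which binds new chains at the ribosome. Fgf21 encodes an endocrine fibroblast growth factor made by the stressed or fasting liver.

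The genes lie on 5 chromosomes of the mouse genome (GRCm38, GENCODE M21 annotation). Cdsn has 2 exons at chr17:35552128-35557180 on the plus strand, F13a1 has 15 exons at chr13:36867178-37050244 on the minus strand, and Nacad has 8 exons at chr11:6597823-6606053 on the minus strand. Fxyd3, with 8 exons at chr7:31068172-31076704, and Fgf21, with 3 exons at chr7:45613886-45615490, are both on the minus strand of chromosome 7. Ffar4, with 3 exons at chr19:38097071-38114263 on the plus strand, and Rbp4, with 6 exons at chr19:38116629-38125281 on the minus strand, are neighbours that point towards each other, and their ends lie 2365 bases apart. These 2 members form the only adjacent pair.

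The 250 bases before the RefSeq start site (GRCm38.p6) are shown for Ffar4 and Rbp4, the adjacent pair, of which the first was nearly restricted to HCs and the second was found in many cell types, and for Fgf21, whose counts came from few HCs. All are written 5′ to 3′ on the strand of the gene. Capitals mark the motifs found.
Ffar4, chr19:38096829-38097078, plus strand: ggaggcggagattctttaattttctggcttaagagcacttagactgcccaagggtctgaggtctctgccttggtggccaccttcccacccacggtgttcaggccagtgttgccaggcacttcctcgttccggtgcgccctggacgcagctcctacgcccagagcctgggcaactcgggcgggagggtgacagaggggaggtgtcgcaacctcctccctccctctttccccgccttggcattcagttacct
Rbp4, chr19:38125322-38125571, minus strand: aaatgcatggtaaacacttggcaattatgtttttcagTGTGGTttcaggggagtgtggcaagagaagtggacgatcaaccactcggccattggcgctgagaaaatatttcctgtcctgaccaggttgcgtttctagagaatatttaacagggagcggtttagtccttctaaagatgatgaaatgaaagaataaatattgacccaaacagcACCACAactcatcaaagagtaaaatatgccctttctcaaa
Fgf21, chr7:45615491-45615740, minus strand: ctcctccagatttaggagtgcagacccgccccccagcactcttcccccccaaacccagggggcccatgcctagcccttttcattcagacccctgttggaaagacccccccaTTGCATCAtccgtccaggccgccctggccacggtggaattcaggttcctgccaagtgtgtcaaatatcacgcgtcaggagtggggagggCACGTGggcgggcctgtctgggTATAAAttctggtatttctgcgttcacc

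The search covered 8 motifs on both strands in the 10 promoters listed for the 7 genes and in 32841 mouse promoters of the same length. They were RUNX (TGTGGT), AP-1 (TGANTCA), CRE (TGACGTCA), the ATF4 response motif (TGATGCAA), an E-box (CACGTG), MEF2 (TATTTATA), a nuclear receptor site (AGGTCA) and a TATA box (TATAAA), and the reverse of the MEF2 letters contains a TATA box. The Fgf21 promoter held the reverse of the ATF4 response motif 139 bases before the start, an E-box 50 bases before it and a TATA box 28 bases before it. These motifs were present in 0.792%, 6.02% and 12.4% of all promoters. The Rbp4 promoter shown held RUNX letters in both directions, present in 14.05% of all promoters, and a second Rbp4 promoter held an AP-1 motif, present in 6.75%, and a TATA box. No motif was found in the promoters of the other 5 genes, and the CRE, MEF2 and nuclear receptor letters were in none of the 10, against 1.55%, 1.56% and 14.03% of all promoters. A match describes letters in this window and is not evidence of binding.

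The library held 158281984 unique molecular identifiers (UMIs, one for each captured transcript) in 14181 barcodes, with 500 to 85279 UMIs in a barcode. The 8256 cells kept had a median of 13957.5 UMIs. They fell into 29 clusters, of which 22 were placed in 15 classes by marker genes and 7, with 584 cells, were left unnamed. The members, the Mmp genes and Pth1r were withheld from the genes used for clustering. A level is given as CPM, the UMIs of a gene summed over a class for each 1000000 UMIs of that class. The HC-like class was 1 cluster of 91 cells, 1.10% of the cells and 2.36% of the UMIs. Of its 8 markers Col10a1 led, 7 were detected and Phospho1 had no UMI. Panx3, Runx3 and Mef2c were lower than in the pre-hypertrophic (pre-HC-like) class, at 153 against 515, 47.5 against 143 and 280 against 489 CPM. Scin was lower than there as well, so more of the detected markers were lower than higher. Col10a1, Vegfa and Alpl were higher than there, and Col10a1 gave 11837 of the 12996 CPM summed over the list. The HC-like cells were deep, with a median of 35646 UMIs, and Scrublet called none of them a doublet, against 588 calls in all. Col10a1 ranged from 32.0 to 40790 CPM with a median of 10321, and 73 of the 91 cells had more than 14 WPRE UMIs, the study's limit for an HC-derived cell.

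In the list of genes by level in HC-like cells over all other cells, Col10a1, Cdsn and Fxyd3 held ranks 1, 2 and 3. F13a1, Ffar4, Nacad, Rbp4 and Fgf21 held ranks 4, 5, 7, 9 and 11, and Fn1, Car6 and Ddit4l stood among them. Fgf21, the member with the smallest difference, had a log2 ratio of 3.56 with 10 CPM added to both levels, and the next gene on the list, Loxl4, had 3.49. A 4-fold higher level was reached by 82 of 8996 genes, or 0.912%, and by all 7 members. Since this contrast chose the members, nothing is read from that count.

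Cdsn was found in 83 of the 91 HC-like cells, at 504 CPM (480 to 529) over the class. Single HC-like cells ran from 0 through a median of 419 to 1587 CPM. The pre-HC-like class followed at 18.1 CPM (16.2 to 20.2) and the immature osteoblast or stromal-like class at 5.55 CPM (4.16 to 7.26). The remaining 12 classes lay at or below 2.14 CPM, and from there down the neighbours in the order had overlapping counting intervals. HC-like cells held 74.2% of all Cdsn UMIs of the cells kept, so the transcript of an epidermal adhesion protein was largely a transcript of this 1.10% of the cells. Erythroid-like cells, which should lack it, had a Cdsn UMI in 1.09% of cells at a median depth of 12368 UMIs.

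Ffar4 was the member with the largest share of its UMIs in HC-like cells, 84.2%. Its level there was 176 CPM (162 to 191), in 70 of the 91 cells, with a cell median of 111 and a maximum of 640 CPM. No other named class exceeded 1.26 CPM, and their intervals overlapped from the immature osteoblast or stromal-like class down to the 3 classes without a UMI. The unnamed clusters are not included here. In pre-HC-like cells the gene stood at 1.12 CPM. Its chromosomal neighbour Rbp4 showed a different order, with levels above 60 CPM in 7 classes.

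Fgf21 was the rarest member, with a UMI in 33 of the 91 HC-like cells. The class level was 124 CPM (112 to 137), but the cell median was 0 and the highest cell reached 2743 CPM. The 10 cells with the most UMIs held 83.6% of the 402 Fgf21 UMIs in HC-like cells, against 33.2% to 48.9% for the other 6 members. Outside HC-like cells it reached 2.73 CPM (2.05 to 3.56) in maturing chondrocyte-like and 2.63 CPM in neutrophil-like cells, and 35 of the 37 neutrophil-like UMIs were in 1 cell. The level of this hormone gene in HC-like cells was therefore carried by a minority of the cells.

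Fxyd3 was found in 75 of the 91 HC-like cells at 467 CPM (443 to 491), with a cell median of 205 and a maximum of 4718 CPM. Pre-HC-like cells followed at 56.8 CPM (53.4 to 60.4), with a UMI in 245 of 615 cells. Proliferating and maturing chondrocyte-like cells had 10.0 and 9.003 CPM with overlapping intervals, and all named classes outside the chondrocytes were at or below 1.05 CPM. Among the named classes Fxyd3 was thus largely a transcript of chondrocytes.

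Rbp4 was found in 90 of the 91 HC-like cells at 1004 CPM (970 to 1039), with a cell median of 762 and a maximum of 8026 CPM. It was also the broadest member. Periosteal or tendon fibroblast-like cells had 240 CPM (219 to 264) and a UMI in 58.7% of cells. Pre-HC-like and maturing chondrocyte-like cells followed at 153 and 147 CPM, with overlapping intervals, and then immature osteoblast or stromal-like cells at 102, proliferating chondrocyte-like cells at 78.2 and mature osteoblast-like cells at 64.8 CPM. The 8 classes of blood, endothelial and mural cells were at or below 6.18 CPM. Within the maturing chondrocyte-like class the cluster led by Ucma had 303 CPM and the other cluster 93.1 CPM, so the level did not fall into a single series from maturing to hypertrophic cells. HC-like cells held 26.0% of all Rbp4 UMIs.

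F13a1 was shared between HC-like cells and blood cells. HC-like cells had 657 CPM (630 to 686) with a UMI in 85 of 91 cells, a cell median of 378 and a maximum of 3861 CPM. Monocyte-like cells had 295 CPM (281 to 309) with a UMI in 397 of 571 cells and a cell median of 207 CPM. Basophil, mast or dendritic-like cells had 43.6, immature osteoblast or stromal-like cells 33.0, osteoclast or macrophage-like cells 27.8 and neutrophil-like cells 22.7 CPM, and pre-HC-like cells only 15.1 CPM. The HC-like level was 2.23-fold that of monocyte-like cells, the smallest ratio to a next class among the members. With at most 5% mitochondrial UMIs, where the HC-like cluster also took in 203 pre-HC-like cells, the F13a1 level of that cluster was 129 CPM and HC-like cells were no longer the highest class. The leukocyte markers Ptprc, Cd52 and Coro1a summed to 37.0 CPM in HC-like cells against 2953 in monocyte-like and 5.89 in pre-HC-like cells. The 7 macrophage markers summed to 7.71 CPM, against 3936 in osteoclast or macrophage-like and 3.59 in pre-HC-like cells. The 5 megakaryocyte markers summed to 4.01 CPM. Neutrophil, osteoclast, B lymphoid and monocyte markers summed to 364, 171, 121 and 30.2 CPM, above the 126, 22.1, 64.4 and 10.4 CPM of pre-HC-like cells. Megakaryocyte, dendritic and basophil or mast sums were below those of pre-HC-like cells. The part of blood cell transcripts in the F13a1 level was not tested. In the 39 HC-like cells without a UMI of any of 19 leukocyte, macrophage, monocyte and megakaryocyte markers, F13a1 stood at 580 CPM (539 to 625), in 34 of the 39 cells. In the 52 HC-like cells with such a UMI it was higher, at 704 CPM (668 to 742), in 51 cells. Median depth was 32125 UMIs without and 38660 UMIs with such a UMI.

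Nacad was found in 73 of the 91 HC-like cells at 173 CPM (159 to 188), with a cell median of 133 and a maximum of 2078 CPM. The next class was erythroid-like, at 24.5 CPM (20.8 to 28.8) with a UMI in 100 of 459 cells, and after thinning every cell to 5000 UMIs 10.5% of erythroid-like and 44.0% of HC-like cells still had one. Pre-HC-like cells had 10.4 CPM and the other 12 classes at most 2.28 CPM. Hemoglobin and the other erythroid markers summed to 1990 CPM in HC-like cells against 309482 in erythroid-like cells, and their part in the Nacad level of HC-like cells was not tested. In erythroid-like cells Ffar4 had no UMI in 459 cells, where the exact interval for the share of cells with a UMI ends at 0.8005%, and the other 5 members were at or below 2.10 CPM.

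**Figure D1:**
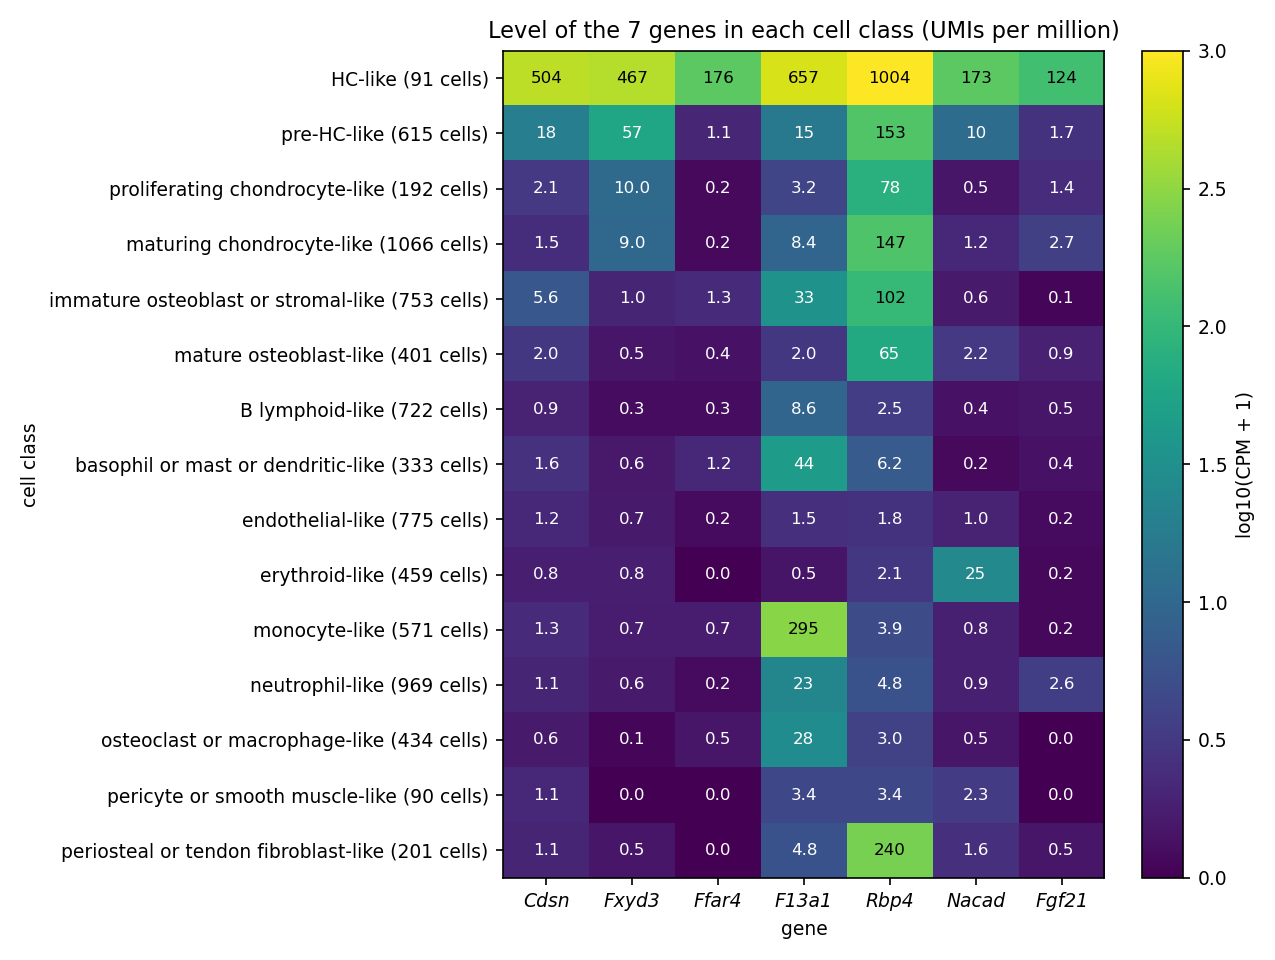
Level of each member, in UMIs per 1000000 UMIs (CPM), in the 15 named classes, 1 line of the grid for each class and 1 column for each gene, with the level printed in each field and the colour giving log10(CPM + 1). HC-like cells are highest for each of the 7 genes, the second class differs from gene to gene, and F13a1 in monocyte-like cells, at 295 CPM, is the closest to its HC-like level.

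Joint detection of the 7 genes in a cell follows in part from their choice as genes high in HCs. Of the 91 HC-like cells 20 had UMIs of all 7 members, 37 of 6, 16 of 5 and 14 of 4, and 4 cells had fewer, while after thinning to 5000 UMIs 1 of the 91 had all 7 and 11 had 6. At least 4 members were found in 87 of the 91 HC-like cells, in 44 of the 221 cells of the later of 2 pre-HC-like clusters, in 3 of the 394 cells of the earlier one, and in none of the 401 mature osteoblast-like, 459 erythroid-like, 571 monocyte-like or 775 endothelial-like cells. Depth differed between these classes. After the same thinning, 60 of the 91 HC-like cells and 7 of the 220 later pre-HC-like cells deep enough still had 4 or more, and none did in the earlier cluster. The thinned shares of HC-like cells were 85.7% for Rbp4, 79.1% for Cdsn, 75.8% for F13a1, 56.0% for Fxyd3, 47.3% for Ffar4, 44.0% for Nacad and 15.4% for Fgf21.

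The members were also compared between pre-HC-like and HC-like cells, ordered by their Col10a1 level. The earlier pre-HC-like cluster, led by Ppa1, Cdkn1c, Smpd3, Panx3 and Ihh, had 276 CPM of Col10a1, the later one, led by 2610528A11Rik, Tnni2 and Espn, had 976 CPM, and HC-like cells had 11837 CPM. The names earlier and later stand for this order of Col10a1 and not for measured time. Col2a1 was 56290, 43527 and 13508 CPM in the same order. Against pre-HC-like cells as a whole, all 7 members were at least 4-fold higher in HC-like cells, where 119 of 7930 genes, or 1.5%, reached that ratio. The rule used the same HC-like cells, so this count is not independent of it. The median log2 ratio was 3.51 over the members and 0.34 over all genes compared, and it ran from 2.64 for Rbp4 to 4.73 for F13a1.

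Between the 2 pre-HC-like clusters, which the rule did not contrast, the members parted. Cdsn was 2.39 CPM (1.601 to 3.43) in the earlier cluster and 51.5 CPM (45.8 to 57.7) in the later one. Nacad was 0.989 CPM and then 30.5 CPM (26.1 to 35.4), and F13a1 was 7.25 and then 31.9 CPM (27.4 to 36.9). These 3 genes were at least 2-fold higher in the later cluster, where 0.797% of 6777 genes were, and they passed the minimum of 10 CPM only through that cluster. Rbp4 differed less, at 122 and 218 CPM. Fxyd3 went the other way, with 61.0 CPM (56.7 to 65.6) in the earlier and 48.0 CPM (42.5 to 54.0) in the later cluster. Ffar4 had 0.247 and 2.98 CPM and Fgf21 1.73 CPM and 1.75 CPM, both too low for the comparison.

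Set against the HC-like level of the same gene, the later cluster had 21.7% for Rbp4, 17.6% for Nacad, 10.3% for Fxyd3, 10.2% for Cdsn, 4.85% for F13a1, 1.69% for Ffar4 and 1.41% for Fgf21, beside 8.25% for Col10a1. The earlier cluster had 13.1% for Fxyd3 and 12.2% for Rbp4 and at most 1.40% for the others, beside 2.33% for Col10a1. Fxyd3 and Rbp4 were thus present where Col10a1 was low. Cdsn and Nacad were at a share below that of Col10a1 in the earlier cluster and above it in the later one, and F13a1, Ffar4 and Fgf21 were below it in both. The share of cells with a UMI gave the same picture for Cdsn, at 4.06%, 33.5% and 91.2% of earlier pre-HC-like, later pre-HC-like and HC-like cells, with median depths of 29991.5, 25566 and 35646 UMIs.

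**Figure D2:**
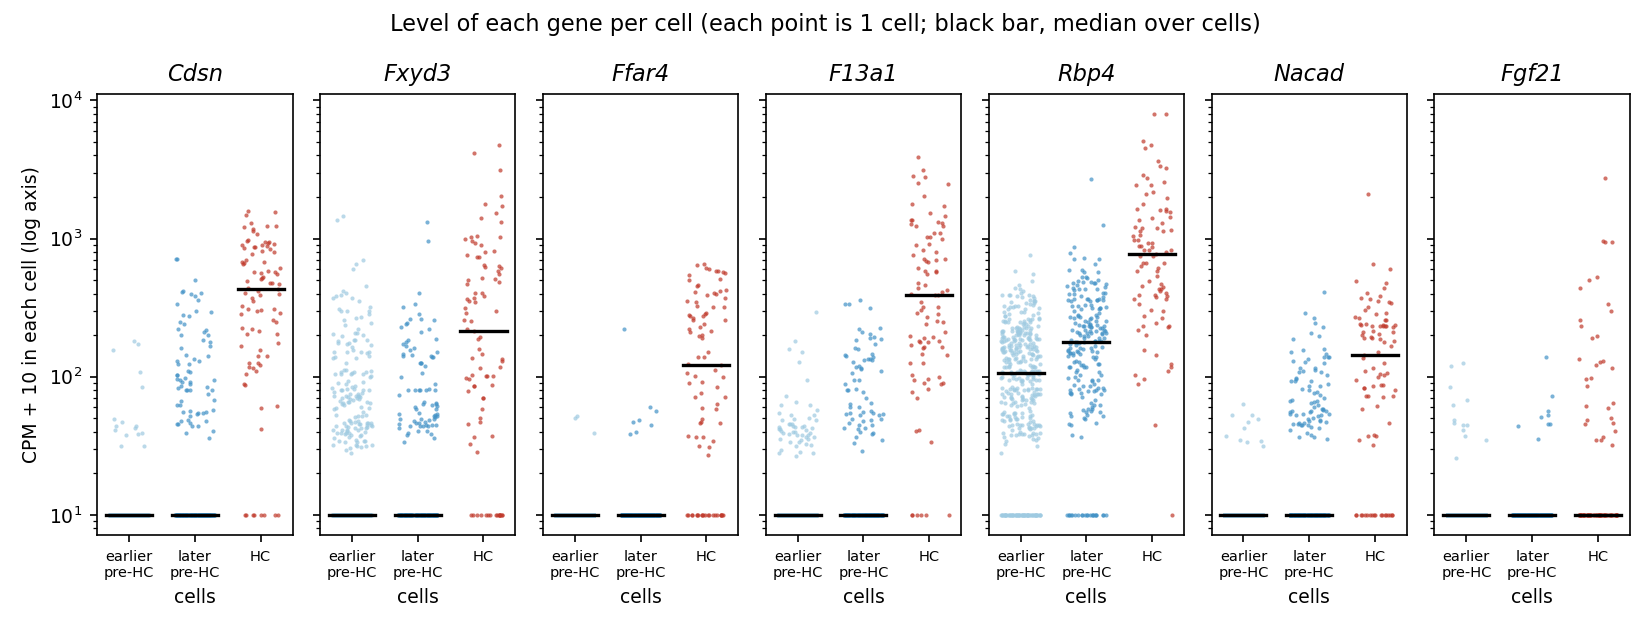
Level of each member in single cells of the earlier pre-HC-like, later pre-HC-like and HC-like groups, as CPM + 10 on a logarithmic axis, with 1 point for each cell, the cells without a UMI at 10, and a black bar at the median over cells. Cdsn and Nacad are higher in the later than in the earlier pre-HC-like cluster, and Fxyd3 and Rbp4 are present in both. Ffar4 and Fgf21 are rare in both, and Fgf21 is high in few HC-like cells.

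The members were also set against the Col10a1 level of each cell, without clusters. In the 6398 cells with no Col10a1 UMI, Cdsn was at 2.59, Fxyd3 at 5.85, Ffar4 at 0.297, Nacad at 2.995 and Fgf21 at 0.781 CPM, while F13a1 and Rbp4 were at 25.5 and 58.5 CPM. In the 106 cells with 1000 to 10000 CPM of Col10a1, Cdsn was at 232, Fxyd3 at 221, Ffar4 at 41.4, F13a1 at 336, Rbp4 at 401, Nacad at 85.3 and Fgf21 at 93.0 CPM. In the 58 cells at 10000 CPM and over, the same genes had 458, 573, 220, 567, 1090, 150 and 60.3 CPM. Of the members, 6 were thus higher in the top bin than in the one before it. Fgf21 was the exception, with 60.3 CPM (49.9 to 72.1) against 93.0 CPM (83.3 to 103), although it was found in 32.8% of the cells of the top bin and 15.1% of those before it. Ffar4 showed the largest ratio of the top bin to the one before it among the 7. The top bin held 47 HC-like and 6 pre-HC-like cells, and the one before it 40 HC-like and 57 pre-HC-like cells. The differences between these bins thus in part repeat the contrast that chose the members.

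Of the 58 cells with at least 10000 CPM of Col10a1, 11 were not HC-like, namely 6 pre-HC-like cells and 5 of unnamed clusters. Scrublet called 195 of all 584 unnamed cells doublets. Set against the 47 HC-like cells with as much Col10a1, 6 members were lower in them, among them Cdsn at 222 against 501, F13a1 at 143 against 645 and Rbp4 at 342 against 1228 CPM. Fgf21 was 78.3 CPM (50.1 to 116) against 56.97 CPM (46.1 to 69.6), with overlapping intervals. The cells were few and deep, with a median of 29618 UMIs. They also lie outside the HC-like class, and the members were chosen as low there. Lower levels in them therefore follow in part from the choice. The barcodes left out for low quality held 26 more with that level of Col10a1, at a median of 3904.5 UMIs, and Rbp4 was 988, F13a1 480 and Cdsn 369 CPM in them, while Fgf21 had no UMI, with an upper limit of 25.7 CPM.

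**Figure D3:**
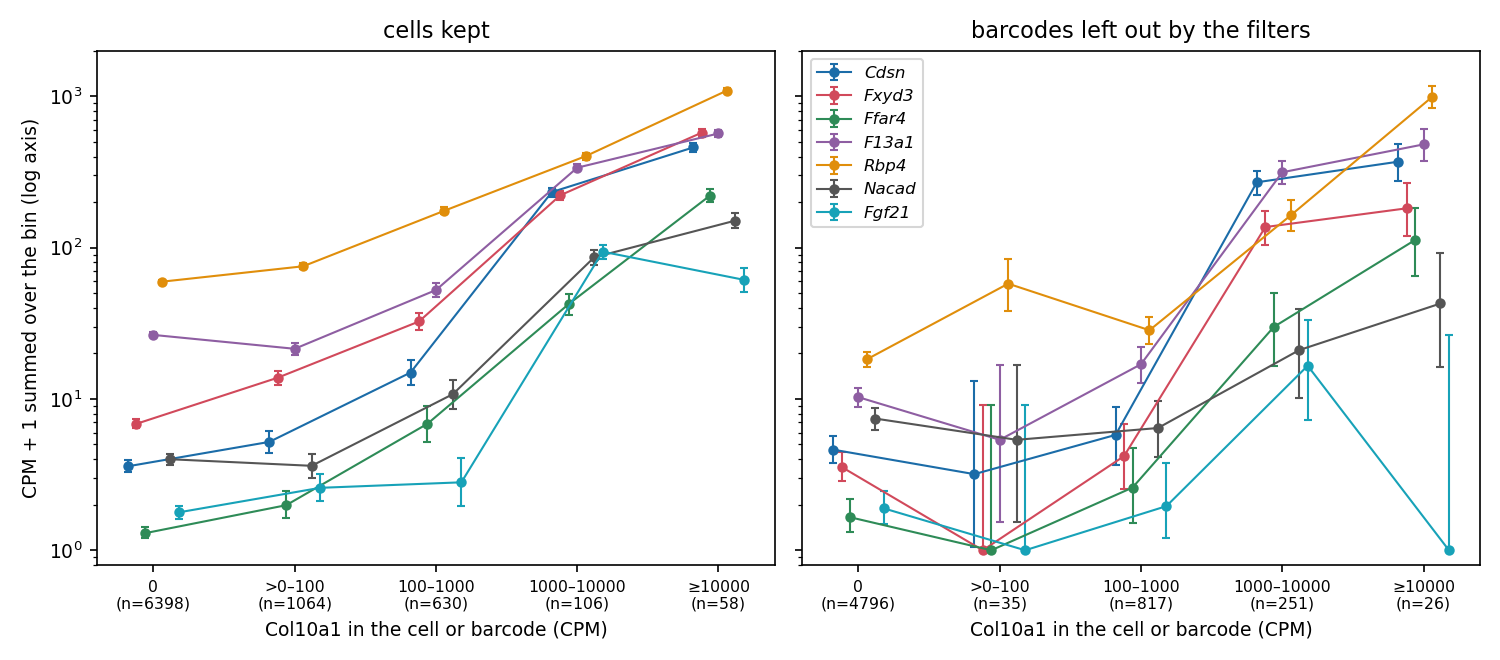
Level of each member, as CPM + 1 on a logarithmic axis, in bins of the Col10a1 level of the cell or barcode, for the cells kept (left) and the barcodes left out (right), with 95% Poisson intervals that cover counting error only. Among the cells kept all 7 genes are higher above 1000 CPM of Col10a1 than in cells without it, and Fgf21 is lower in the top bin than in the one before it.

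Within the HC-like cells the 7 genes did not vary as one block. Pairs of genes were compared over the 91 cells after thinning to 5000 UMIs, which gives every cell the same depth, and since all cells come from 1 library the values are a description. F13a1 went with Spp1, the gene of osteopontin, at a Spearman rho of 0.67, and with the collagenase gene Mmp13 at 0.48. Fxyd3 went with Col2a1, the gene of cartilage collagen, at 0.47, and with Alpl, the gene of alkaline phosphatase, at 0.42. Ffar4 went with Col10a1 and with its neighbour Rbp4, at 0.42 each. The remaining pairs among members and with the markers tried were at or below 0.41 in size, and in counts this sparse they are not read further.

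Dividing the 91 cells at their median Col2a1, a split chosen after these values had been seen, put Fxyd3 on the cartilage side. The 45 cells above the median had 773 CPM of Fxyd3 (730 to 817) and a cell median of 568 CPM, and the 46 at or below it had 178 CPM (158 to 199) and a cell median of 81.8 CPM. F13a1, Rbp4 and Ffar4 were also higher above the median, at 809 against 514, 1109 against 905 and 203 against 151 CPM. So was Col10a1, at 14683 against 9147 CPM. Cdsn, Nacad and Fgf21 were higher in the cells low in Col2a1, at 581 against 423, 217 against 127 and 163 against 83.1 CPM. The depth of both groups was similar, with medians of 34819 and 37107 UMIs. Fxyd3 was thus the member most unevenly spread over this split, and it was also the one with the highest share of its HC-like level in the earlier pre-HC-like cells.

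Dividing the same cells at their median Spp1, likewise chosen afterwards, set F13a1 apart. The 45 cells above the median had 983 CPM of F13a1 (935 to 1033) with a cell median of 793 CPM, and the 46 others had 339 CPM (312 to 369) with a cell median of 170 CPM. Rbp4 was 1232 against 782 CPM. Nacad was lower in the cells high in Spp1, at 123 against 222 CPM, and so was Fgf21, at 74.9 against 172 CPM. Cdsn and Fxyd3 were 504 against 505 CPM and 460 against 474 CPM, with overlapping intervals in both. Mmp13 was 1257 CPM in the cells high in Spp1 and 15.2 CPM in the others.

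**Figure D4:**
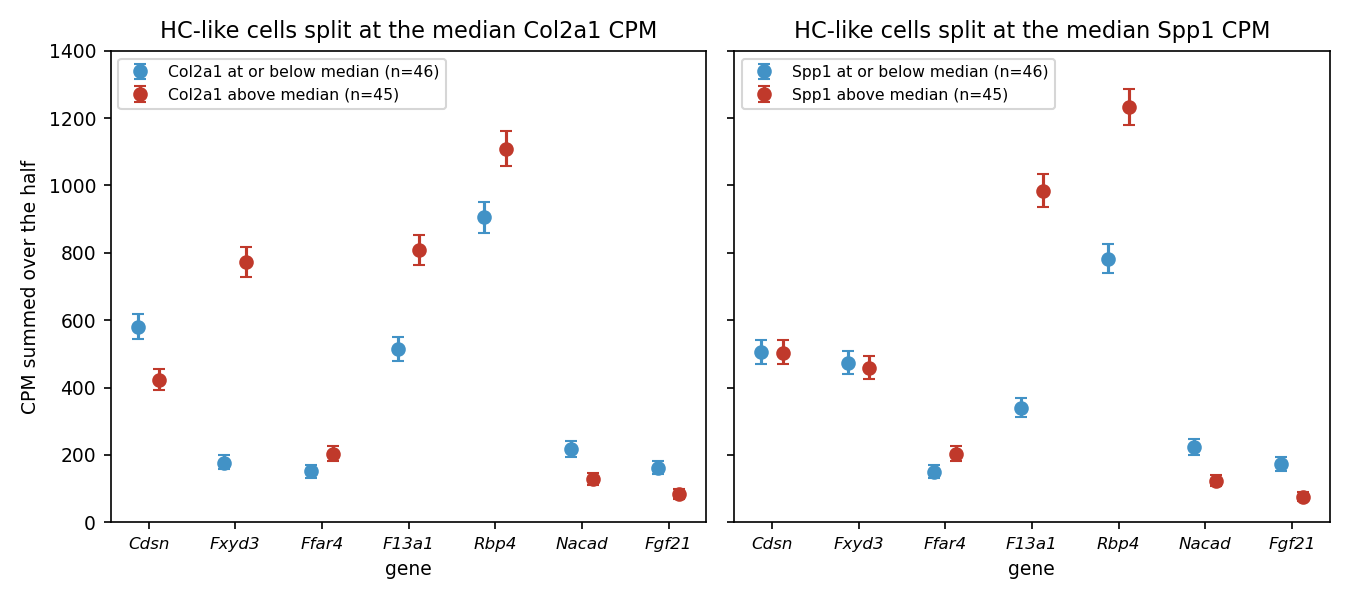
Level of each member in CPM, with 95% Poisson intervals that cover counting error only, in the 91 HC-like cells divided at the median of Col2a1 (left) and at the median of Spp1 (right), in blue for the 46 cells at or below the median and in red for the 45 above it. Fxyd3 separates most by Col2a1, with 773 against 178 CPM, F13a1 separates most by Spp1, with 983 against 339 CPM, and Cdsn and Fxyd3 do not separate by Spp1.

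WPRE divided the HC-like cells less clearly. The 73 HC-like cells with more than 14 WPRE UMIs had a median of 38214 UMIs and the 18 others 26578.5 UMIs, so a limit in UMIs also sorts by depth. F13a1 was 703 CPM above the limit and 348 CPM at or below it, and Cdsn 528 and 340 CPM. Fxyd3 was lower above the limit, 410 CPM (386 to 434) against 857 CPM (770 to 951), and Nacad was 166 against 220 CPM. Ffar4, Rbp4 and Fgf21 were 181 and 145, 1020 and 898, and 125 and 113 CPM. Col10a1 itself was 11542 CPM above and 13857 CPM at or below the limit. The part of depth in these differences was not tested.

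The osteogenic cells, immature and mature, numbered 1154, and 295 of them had more than 14 WPRE UMIs and are called HC-derived. F13a1 was 50.2 CPM (44.4 to 56.6) in HC-derived and 5.16 CPM in the 859 other osteogenic cells, and Rbp4 was 169 CPM (158 to 180) and 47.7 CPM. These 2 members were at least 2-fold higher in HC-derived cells, where 22 of 8138 genes, or 0.27%, were. F13a1 passed the minimum of 10 CPM only through the HC-derived cells. The other 5 members were under 10 CPM in both groups and were not compared, with Cdsn at 9.52 and 1.498 CPM, Nacad at 2.80 and 0.666 CPM, Ffar4 at 1.87 and 0.416 CPM and Fxyd3 at 0.933 and 0.749 CPM. Fgf21 had no UMI in the 295 HC-derived cells, with an upper limit of 0.689 CPM, and 0.666 CPM in the others.

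The difference in F13a1 lay in 1 of the 3 osteogenic clusters. In the larger immature cluster, led by Tnc, Mmp13 and Wif1, F13a1 was 133 CPM (117 to 150) in 114 HC-derived cells and 8.60 CPM (6.17 to 11.7) in 381 others. It was 4.52 and 4.65 CPM in the smaller immature cluster, led by Cxcl12 and Adipoq, and 1.83 and 2.16 CPM in mature osteoblast-like cells, with overlapping intervals in both. Rbp4 was 252 against 21.2 CPM in the larger immature cluster and 117 against 37.1 CPM in mature osteoblast-like cells, but 137 against 132 CPM in the smaller immature cluster. Rbp4 thus differed between HC-derived and other cells also among mature osteoblast-like cells, where F13a1 did not differ beyond its counting interval. The 2 groups of mature osteoblast-like cells also differed in Bglap, at 2975 against 14465 CPM, and in Ibsp, at 10799 against 5640 CPM. In the larger immature cluster Ibsp was 7333 against 1143 CPM and Bglap 39.7 against 489 CPM. The part of such differences in the Rbp4 and F13a1 levels was not tested.

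Most F13a1 UMIs of the HC-derived cells came from part of a group of 19 cells, called here between HC-like and osteogenic. They were found as the cells that 2 other clusterings, at a resolution of 1.5 or with 3000 variable genes, placed among HC-like cells and the clustering used here did not. The members were withheld from both of those clusterings. Of the 19, 15 lay in the larger immature cluster and the others outside the osteogenic clusters, so the name does not describe every cell. More than 14 WPRE UMIs were found in 13 of them, none was called a doublet, and the median depth was 16433 UMIs. Their Col10a1 was 407 CPM, far below the 11837 CPM of HC-like cells, with Spp1 at 58705, Ibsp at 11211 and Mmp13 at 6856 CPM, while Col1a1 was 506 CPM. Chondrocyte transcripts were present in them too. Col2a1 was 11248 CPM against 13508 CPM in HC-like cells, with cell medians of 1629 and 7501 CPM. Most of the 3975 Col2a1 UMIs of the 19 cells lay in those with at most 14 WPRE UMIs. The HC-derived cells of the larger immature cluster had 1489 Col2a1 UMIs with the cells between and 829 without them. Their Col2a1 level was 757 CPM with those cells and 483 CPM without them. Panx3 was 357 against 153 CPM in HC-like cells, and Ihh 22.6 against 120 CPM.

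In these 19 cells the 7 genes divided sharply. F13a1 was 705 CPM (620 to 798) and was found in 18 of them, from 0 through a median of 529 to 1944 CPM, and Rbp4 was 948 CPM (849 to 1055) and was found in 16, from 0 through a median of 809 to 2505 CPM. Both counting intervals overlapped those of HC-like cells. Cdsn was 79.2 CPM (52.6 to 115) and Ffar4 28.3 CPM (13.6 to 52.0), both below the HC-like level. Fxyd3 had 2 UMIs, and Nacad and Fgf21 had none, with an upper limit of 10.4 CPM, against 467, 173 and 124 CPM in HC-like cells. Ptprc was at 5.66, C1qa at 8.49 and Lyz2 at 8.49 CPM in them. Cells with less Col10a1 and more Spp1, Ibsp and Mmp13 than the HC-like class thus had F13a1 and Rbp4 at the HC-like level and the other 5 members below it.

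Without the 19 cells, F13a1 fell from 269 to 60 UMIs in HC-derived osteogenic cells. Its level was then 11.7 CPM in the 282 remaining HC-derived and 4.67 CPM in the 857 other osteogenic cells, and no longer reached a 2-fold ratio on the scale with 10 CPM added. Rbp4 was 120 against 47.4 CPM and still did, and 1 member of 7 was then past the ratio. Without the added 10 CPM the folds of the 2 genes were almost equal, at 2.517 for F13a1 and 2.523 for Rbp4. In the larger immature cluster alone, the 101 HC-derived cells that remained had 30.3 CPM of F13a1, 118 CPM of Rbp4 and 8.16 CPM of Cdsn. Those 101 cells also held blood cell transcripts, with Ptprc at 40.8 and Lyz2 at 599 CPM and 12 doublet calls, and their part in the remaining F13a1 was not tested. Leaving these cells out was decided after the values had been seen.

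**Figure D5:**
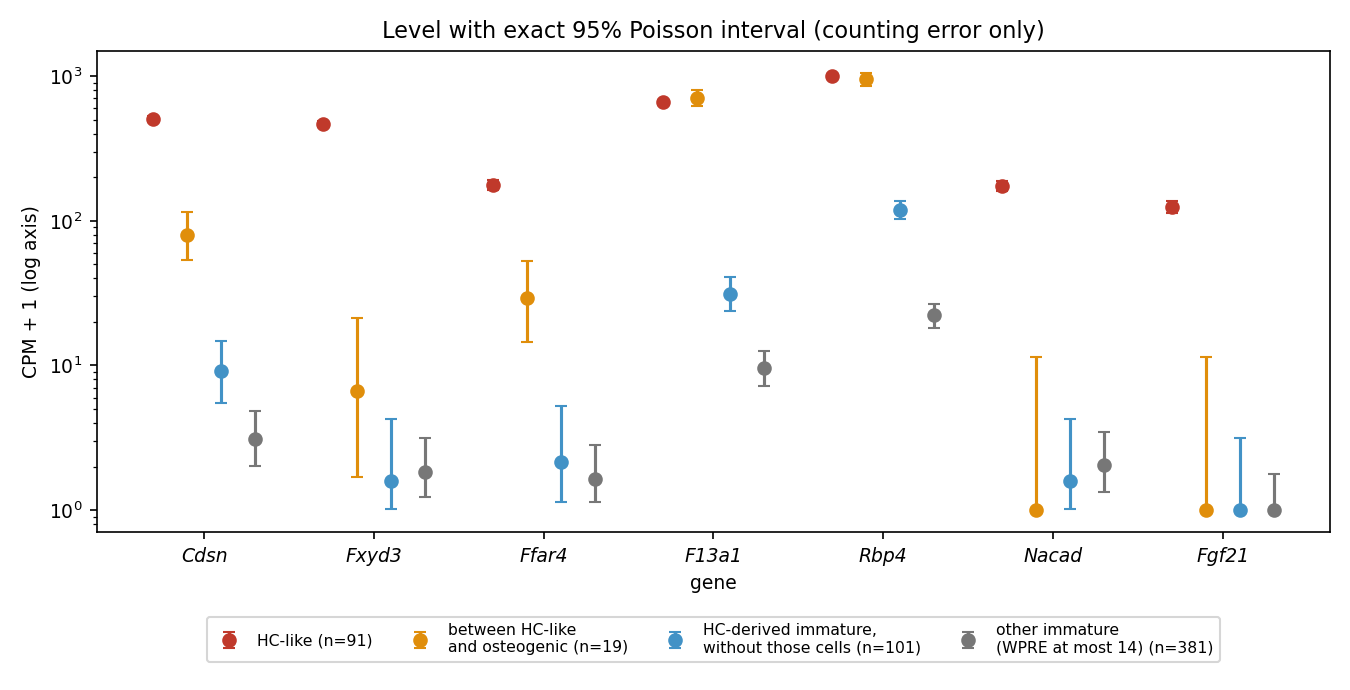
Level of each member, as CPM + 1 on a logarithmic axis with 95% Poisson intervals that cover counting error only, in the 91 HC-like cells, the 19 cells between HC-like and osteogenic, and, from the larger immature cluster, the 101 HC-derived cells left without them and all 381 cells with at most 14 WPRE UMIs. Of the 19 cells, 15 lay in the larger immature cluster and the others outside the osteogenic clusters. F13a1 and Rbp4 are as high in the 19 cells as in HC-like cells. Cdsn and Ffar4 are lower, and Fxyd3, Nacad and Fgf21 are close to or at 0 UMIs.

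The partners of each gene in its better known setting were mostly absent from HC-like cells. Of the 16 other genes of the cornified envelope and corneodesmosome list, 8 had no UMI in HC-like cells, among them Dsg1a, Dsg1b, Dsc3, Flg, Ivl, Klk5, Klk7 and Krt5, and only Krt10 reached 10 CPM and was compared, at 19.7 against 14.1 CPM. Dsc2, a desmosomal cadherin gene, was below that minimum, with 8.32 CPM (5.48 to 12.1) in HC-like and 0.224 CPM in pre-HC-like cells. Of the 8 other transglutaminase genes, 7 had no UMI and Tgm2 was 46.2 CPM in both classes. Ffar1, Ffar2 and Ffar3 had no UMI. Ttr, the plasma partner of the Rbp4 protein, and Stra6, its receptor, had none, and neither did Kl or Klb, the genes of the klotho co-receptors for endocrine FGFs. The 4 adipocyte markers Adipoq, Plin1, Cidec and Cfd were also at 0. For these lists a 2-fold higher level than in pre-HC-like cells was reached by 10.7% of the 7930 genes compared and a 2-fold lower level by 3.72%.

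Other genes of the same lists did differ. Among 14 other genes of fatty acid reception and handling, 7 were compared and 5 were at least 2-fold higher in HC-like cells, namely Fabp3 at 158 against 16.3 CPM, Plin2, a coat protein of lipid droplets, at 90.6 against 16.4 CPM, Gpr84, a receptor for medium-chain fatty acids, at 28.4 against 1.29 CPM, Fabp4 and Fabp5. Fabp3 was highest in HC-like cells, but the others were higher in other classes. Gpr84 was 123 CPM in neutrophil-like, Plin2 498 in monocyte-like, Fabp4 3677 in endothelial-like and Fabp5 1211 CPM in pericyte or smooth muscle-like cells. Of the 12 other FXYD and sodium pump genes, 8 were compared. Those at least 2-fold higher included Fxyd5, at 190 against 21.2 CPM, and Atp1b1, at 56.7 against 18.9 CPM, and Fxyd1 was lower at 45.6 against 104 CPM. Fxyd5 was 569 CPM in monocyte-like and Atp1b1 338 CPM in B lymphoid-like cells. The part of transcripts from other cell types in these HC-like levels was not tested. Of the 20 other retinoid genes, 8 were compared and 2 were higher, namely Rdh10 and Aldh1a3, which make retinal and retinoic acid. Aldh1a3 was 37.9 against 8.63 CPM and had its highest level in HC-like cells.

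Of the 8 other genes of the endocrine FGF list, 3 were compared. The receptor gene Fgfr1 was 219 CPM in HC-like against 30.9 CPM in pre-HC-like cells, and Fgfr3 was 96.2 against 478 CPM. The integrated stress response, which is known to act on Fgf21 in other tissues, was compared for all 12 of its genes, and 6 were at least 2-fold higher and none lower. They were Nupr1 at 1606 against 231 CPM, Trib3 at 106 against 30.9 CPM, Atf5 at 253 against 86.3 CPM, Ddit3, Asns and Ppp1r15a. Atf4 itself was 633 against 547 CPM. The 3 other genes of the nascent polypeptide complex, Naca, Btf3 and Btf3l4, were compared and none differed 2-fold, with Naca at 1260 against 1120 CPM. Nacad did, but it was chosen for its level in HCs, so nothing is read from that. Of the 20 hypertrophic genes, 19 were compared, 6 were higher, namely Col10a1, Spp1, Ibsp, Mmp13, Alpl and Ank, and 3 were lower, namely Panx3, Runx3 and Dlx5.

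The genes whose levels over the 29 clusters were most like those of each member differed between members. The measure was Pearson's r of log2(CPM + 10) over 12242 genes, and a gene high in only the HC-like cluster gives a high r with any other such gene. For Cdsn the nearest was Dsp, the gene of the desmosome protein desmoplakin, at 0.958, with 14.8 CPM in HC-like and 2.91 CPM in pre-HC-like cells, followed by Avil, Derl3, Car6 and Slc7a3. For Ffar4 it was Car6 at 0.99, then Derl3 and Adig, and for Fgf21 Acox2 at 0.978, then Adig, Car6, Rgn and Akr1b7. For Fxyd3 it was Tmem132b at 0.955, with Col10a1 at rank 3 and 0.938. Nacad was nearest to Cdsn, at 0.891. Rbp4 was nearest to Sdk2, at 0.918, and F13a1 had no close match, with Cds1 at 0.791.

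The chromosomal neighbours of the members were not at comparable levels in HC-like cells. Ffar4 and Rbp4 were the exception, as each is the other's nearest gene. Beyond them, Cep55 and Pde6c stood at 1.85 and 0.308 CPM. Psors1c2, next to Cdsn, was at 0.925 CPM, Fut1, which lies 1798 bases from Fgf21, at 0.308 CPM, and Lgi4, which overlaps Fxyd3 on the other strand, at 0.925 CPM. Nrn1 and Ly86 beside F13a1 were at 8.32 and 2.77 CPM, and Ccm2 and Tbrg4 beside Nacad at 29.0 and 21.9 CPM, near the 31.7 and 15.7 CPM of all other cells.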

How the data were processed

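For each barcode and gene the authors deposited an unnormalized UMI count, made with Cell Ranger 3.1.0 on mm10, with tdTomato and WPRE added per the study's methods. Per the labels Seurat 3 was also used. A separate deposited count matrix of 98 exogenous sequences was joined by barcode. The P56 sample was not analysed here.

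A cell was kept with 1600 or more genes (the study's minimum), up to 10% mitochondrial UMIs and up to 50% ribosomal protein UMIs, which left out 5925 barcodes. Clusters were found with scanpy 1.11.5 (igraph 0.11.9, scikit-learn 1.9.0, anndata 0.12.19) under Python 3.11.15 with seed 1, intervals with scipy 1.17.1, and tables and plots were made with pandas 2.3.3, numpy 2.4.6 and matplotlib 3.10.9. Leiden clustering took 2000 variable genes, from which the members, the Mmp genes and Pth1r were removed, with 30 components, 20 neighbours and resolution 1. Names came from marker lists, and the limits of the naming rule were chosen with the clusters already in view. A named cluster needed at least 3 markers at 10 CPM, names other than those of blood cells needed under 50 CPM of Ptprc, and chondrocyte-like clusters with Top2a in over 50% of cells were called proliferating. The names were rebuilt here, so a difference from the study may come from them. Scrublet called 4.15% of barcodes doublets, and they were kept except in an alternative.

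Levels have exact Poisson and shares exact Clopper-Pearson 95% intervals. Ratios are log2 with 10 CPM added, for genes that reached 10 CPM in 1 or both groups. Shares were also computed after thinning to 5000 UMIs. With 1 library there was no test. The intervals and the log2 ratios were checked on counts simulated without variation between cells. The genes named are the members, the 5 genes most like each, the lists fixed for them, and chromosomal neighbours. The members and lists were chosen with earlier results of these data known. Promoters are from RefSeq. Alternatives changed the resolution, the variable genes, the filters, the doublets, the HC rule, the added CPM, the averaging and the reporter limit. Sequence reads were not used, and no protein sequence table was used here.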

Additional observations from a re-analysis of the deposited data

Results flagged for a closer look

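Signals outside the comparisons concerned the exogenous sequences and the barcodes left out. EGFP, which the genotype in the labels does not name, had a UMI in 13 of the 91 HC-like cells, 14.3% (7.83% to 23.2%), and all 13 also had more than 14 WPRE UMIs. The share was 3.24% in mature osteoblast-like, 1.46% in pre-HC-like, 1.20% in immature osteoblast or stromal-like and 0.375% in maturing chondrocyte-like cells. It was 0 of 4746 cells in the other 10 named classes, where the exact interval ends at 0.0777%. There were 60 EGFP UMIs in all, and what transcript they come from was not tested. The Cre sequence had a UMI in 3 of the 91 HC-like cells, 3.30%, and 6 UMIs in all.

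The 26 barcodes that failed a quality limit but had at least 10000 CPM of Col10a1 carried 6 of the 7 members too, in counts outside every comparison between cell types, and had no Fgf21 UMI. Cdsn was 369, Fxyd3 181, Ffar4 111, F13a1 480, Rbp4 988 and Nacad 41.7 CPM, each above the level of the left-out barcodes without Col10a1, of which the highest was 17.3 CPM for Rbp4.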

How the results depend on the processing

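No paired analysis was possible because the sequencing entries are 1 library. The settings numbered 16 and gave 199 values, of which 118 moved by less than the counting interval or 1.5-fold and 81 by more. The number of HC-like cells was 91 and stayed between 84 and 111, except at 272 with at most 5% mitochondrial UMIs and at 311 without Scrublet doublets, where 203 pre-HC-like cells fell into the same cluster. Over the settings the Cdsn level in HC-like cells ran from 167 to 514 CPM and that of Rbp4 from 422 to 1211 CPM. All 7 members were highest in HC-like cells except with at most 5% mitochondrial UMIs, where 6 were and F13a1 was not. The count at least 4-fold above pre-HC-like cells was 7, but 5 with that limit and 6 without doublets. Resolution 0.6 gave no pre-HC-like cells and so no value. The count at least 2-fold higher in HC-derived osteogenic cells, 2, was 1 at resolution 1.5, 1 with 3000 variable genes, 1 with at most 5% mitochondrial UMIs, 1 with at least 2000 genes, 1 with the members allowed among the variable genes, 1 without the cells between HC-like and osteogenic, an alternative chosen after seeing the data, and 5 with 1 CPM added. Depth limits Fgf21 and Ffar4 outside HC-like cells, where most classes held under 10 UMIs.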

Other observations

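The list that the members lead held further genes of other organs, chosen here after their values were seen and from the same contrast, so they are a description. Car6, a secreted carbonic anhydrase of saliva, was 130 CPM in HC-like cells and 0.836 CPM in all other cells. Apoa4, an apolipoprotein of the intestine, was 91.9 against 0.970 CPM, and Avil, an actin-binding protein known from sensory neurons and epithelia, 97.4 against 1.59 CPM. The matrix genes Fn1 and Loxl4, which encode fibronectin and a lysyl oxidase, were 10864 against 762 CPM and 256 against 13.7 CPM.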
